A study of Nannospalax ehrenbergi and Mus musculus with 25 samples.

Results

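The genes described here encode proteins that cut damaged or mispaired bases out of DNA, rejoin broken ends or reverse a lesion directly. The list holds 38 genes, chosen by name from the repair pathways and taken from both count tables: 15 of nucleotide excision repair, 12 of base excision repair, 3 of mismatch repair, 7 of end joining and 1 of direct reversal. All 38 stood among the 47593 genes of the mouse table, and 37 stood among the 27988 genes of the blind mole rat table, where Ercc5 was not found. Gene expression had been measured by RNA-seq in 25 libraries of neck muscle and tumors from the blind mole rat Spalax and from C57BL/6 mice, with 1 library per animal and side. Treated animals had received a single injection under the skin of the neck flank of 3-methylcholanthrene (3MCA), a polycyclic hydrocarbon that forms bulky DNA adducts and induces sarcomas, at 1 mg in Spalax and 200 µg in mice.

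The untreated Spalax control had 4 libraries, all from females. The tolerant group had 4 libraries of the injected side (IS) of animals in which no tumor was found, 3 males and 1 female, taken 18 or 30 months after injection. Of the tumor-bearing Spalax, 2 females carried a granuloma (animals 600 and 976, 14 and 16 months after injection), and 1 female and 1 male carried a fibrosarcoma (animals 2240 and 2230, at 18 and 30 months). Each of them gave an IS library, which is the tumor, and an uninjected side (UIS) library, which is muscle of the same animal. The mice, all male, gave 3 control libraries and UIS and IS libraries of 3 animals with fibrosarcoma (1019, 1023 and 512, at 14, 12 and 11 weeks). The mice were 3 to 4 months old. The wild-caught Spalax could not be aged exactly, and the treated ones were estimated at 2 to over 10 years. Each Spalax tumor type rested on 2 animals. Sex was spread unevenly between the control, tolerant and tumor groups of Spalax, and its part in the results was not tested. The libraries of controls and tolerant animals carried dual indexes and those of tumor-bearing animals single ones, so index type and group cannot be told apart between UIS and control, nor between tumors and tolerant animals.

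Nucleotide excision repair removes bulky adducts: Xpc, Rad23b and the Ddb1-Ddb2-Cul4a ubiquitin ligase find the lesion, Xpa and the TFIIH helicases verify and open it, nucleases such as Ercc5 cut out the strand, and Pcna, Rfc1 and Lig1 fill and seal the gap, as they also do in normal DNA replication. Base excision repair handles small oxidized or deaminated bases through glycosylases, the endonuclease Apex1, DNA polymerase beta (Polb) and ligases held by the scaffold Xrcc1. Mismatch repair corrects replication errors through Msh proteins and the exonuclease Exo1, while non-homologous end joining rejoins double-strand breaks through the Ku proteins Xrcc5 and Xrcc6. Skeletal muscle consists mainly of fibers that no longer divide, and several of these genes are known to be transcribed more in dividing cells.

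The Spalax libraries held between 17025447 and 23386729 reads and the mouse libraries between 22143060 and 31179183. Values are normalised counts, that is gene read counts which the authors had divided by 1 size factor per library, separately for each species. The skeletal muscle markers, of which 9 of 12 stood in the Spalax table, followed the tissue labels. Their summed levels lay between 1005000 and 4786000 in the 18 muscle libraries and between 187 and 83120 in the 7 tumors. Brown fat markers summed to between 50340 and 67160 in the mouse controls and to at most 1011 in the Spalax controls. In UIS they summed to 31550, 21010 and 2918 in mice 1019, 1023 and 512. In Spalax UIS the sums were 1141 and 7525 in animals 600 and 976, and 19250 and 1206 in 2230 and 2240. Mouse UIS 512 also had the lowest fibroblast and macrophage sums of the mouse muscle libraries (5152 and 407). Markers of proliferating cells summed to between 504 and 2900 in muscle and to between 10450 and 24710 in tumors. In Spalax control muscle the sum rested largely on Cdk1 and Mcm6 (means of 772 and 505), beside 22.7 for Mki67 and 82.1 for Top2a. Of the 12 genes on that list 10 were called higher in granuloma, 12 in Spalax fibrosarcoma and 12 in mouse fibrosarcoma. Fibroblast markers were called higher for 7, 2 and 4 of 8 genes in these 3 comparisons. Macrophage markers were called higher for 5 of 7, 4 of 7 and 4 of 8 genes tested, and lymphocyte markers for 0 of 5, 5 of 6 and 1 of 6. No marker of muscle, proliferating cells, fibroblasts, macrophages, lymphocytes or endothelium was at 0 throughout a group, while Lep was at 0 in both Spalax tumor types. Of the brown fat markers, Ucp1 was at 0 in Spalax fibrosarcoma. Elovl3 was at 0 there and also in Spalax control and Spalax fibrosarcoma UIS. The part of this change of tissue in the results on repair genes was not tested, and in bulk samples fewer cells of a type and less RNA per cell cannot be told apart.

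Differences were tested on log2(normalised count + 1) with limma over all genes of a table, and a gene is termed called where its Benjamini-Hochberg adjusted p is at most 0.05. In granuloma IS against UIS (2 libraries each), 1 of the 37 members was called higher and 1 lower, against 11.7% and 12.6% of all genes tested. In Spalax fibrosarcoma (2 against 2) 4 members were called higher and 1 lower, that is 10.8% and 2.7% of the members beside 17.4% and 19% of all genes. In mouse fibrosarcoma (3 against 3) 8 of 38 members were called higher and 3 lower, 21.1% and 7.89% beside 22.8% and 22.3%. With both Spalax tumor types combined (4 against 4), 8 members were called higher and 4 lower (21.6% and 10.8%), beside 26.1% and 26.5%. Against the injected side of tolerant animals, the 4 Spalax tumors had 11 members called higher and 2 lower (29.7% and 5.41%), beside 22.4% and 24%. The counts of higher members thus lay near or under the background in all but the last of these comparisons, and the counts of lower members lay under it in all 5. The median log2 fold change of the members was -0.00 in granuloma, 0.19 in Spalax fibrosarcoma and 0.19 in mouse fibrosarcoma, beside -0.01, 0.03 and 0.11 over all genes tested.

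**Figure D1:**
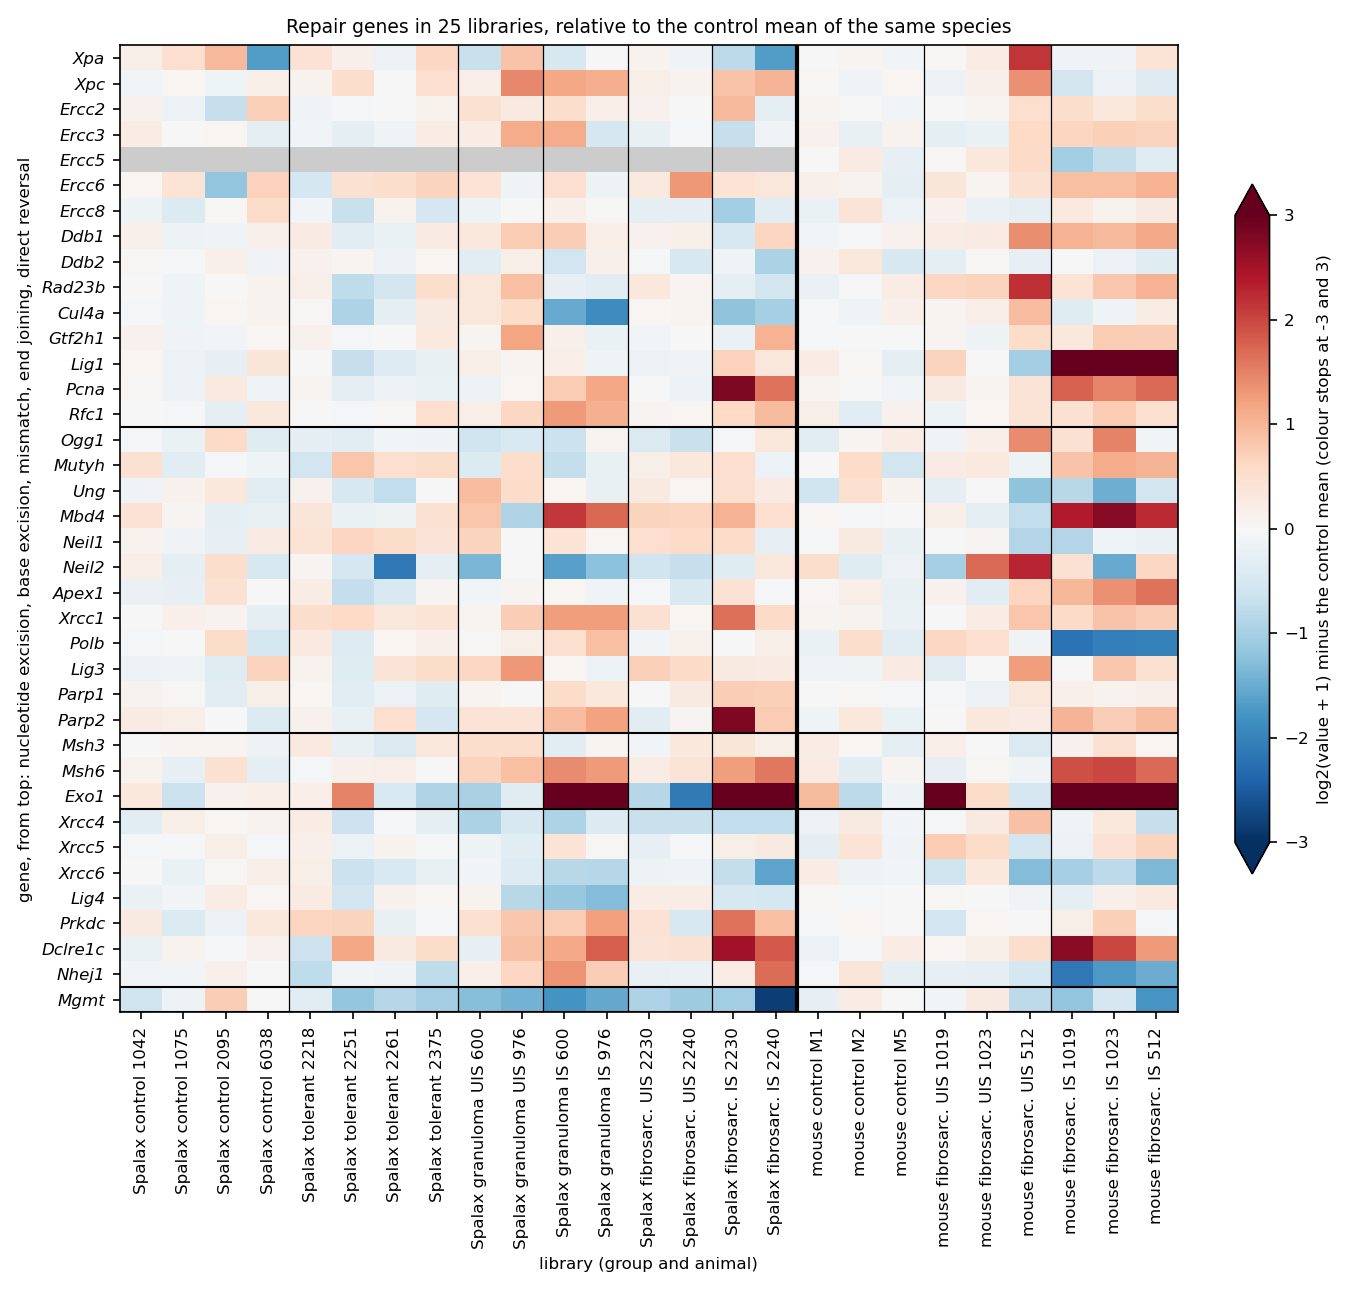
Levels of the 38 repair genes (rows, by pathway) in each of the 25 libraries (columns, by group and animal), as the log2(normalised count + 1) minus the mean of the control libraries of the same species, with colours that stop at -3 and 3; grey marks Ercc5, not found in the Spalax table. The 4 Spalax and 3 mouse tumors stand out in a few rows (Exo1, Pcna, Msh6, Dclre1c), Lig1 and Polb differ from control in the mouse tumors, and the mouse UIS library 512 departs from the other muscle libraries in Xpa, Xpc, Ddb1 and Rad23b.

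These splits depend on the scale. The size factors hold the bulk of genes level between muscle and tumor. When libraries were instead scaled to equal total reads, the median gene itself lay 0.72 higher in granuloma, 0.83 higher in Spalax fibrosarcoma and 1.16 higher in mouse fibrosarcoma on the log2 scale. On that scale 7 members were called higher and 1 lower in granuloma, beside 22.9% and 7.64% of all genes. In Spalax fibrosarcoma 16 and 0 were called, beside 35.2% and 11.3%. With both Spalax types combined (median gene 0.77) the counts were 20 and 1, beside 45.5% and 14.9%. In mouse fibrosarcoma they were 22 and 1, beside 49.6% and 11%, and in tumors against tolerant (median gene 0.71) 19 and 0, beside 38.4% and 15.1%. All changes given here are therefore relative to the bulk of genes.

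Nucleotide excision repair genes: most damage recognition and incision genes were not called in the tumors. The gene of the ligase scaffold Cul4a was called lower in both Spalax tumor types. The gap-filling gene Pcna was called higher in fibrosarcoma of both species, and Lig1 in mouse fibrosarcoma. Cul4a, the cullin that carries the Ddb1-Ddb2 damage receptor, had 4492 and 5150 normalised counts in the granuloma UIS of animals 600 and 976 and 1242 and 949 in their granulomas. In the fibrosarcoma-bearing animals 2230 and 2240 it had 3705 and 3741 in UIS and 1531 and 1759 in the tumors. All 4 tumors thus lay below the 12 Spalax muscle libraries, which ranged from 1865 to 5150, the lowest being the tolerant library 2251. The log2 fold change was -2.15 ± 0.33 (SE) in granuloma (adjusted p = 0.0147, limma) and -1.18 ± 0.22 in fibrosarcoma (adjusted p = 0.019, limma). It was -1.66 with both types combined and -1.18 against tolerant animals, both called. In mice Cul4a had 2821, 3068 and 5091 in the UIS of 1019, 1023 and 512 and 2079, 2442 and 3149 in their tumors. Those groups overlapped, and the log2 fold change of -0.49 was not called. Scaled to total reads, the fall in Spalax fibrosarcoma was 0.37 on the log2 scale with an adjusted p of 0.2 (limma), and against tolerant animals it was 0.52 (adjusted p = 0.0986, limma).

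Pcna, the sliding clamp of DNA polymerases, had 681 and 799 in granuloma UIS (600, 976) and 1299 and 1711 in the granulomas. In fibrosarcoma it had 778 and 683 in UIS (2230, 2240) and 5337 and 2402 in the tumors. In mice it had 706, 622 and 760 in UIS (1019, 1023, 512) and 1982, 1604 and 1900 in the tumors. Every tumor exceeded every muscle library of its species. Pcna was called in Spalax fibrosarcoma (log2 fold change 2.30 ± 0.44, adjusted p = 0.0211, limma) and in mouse (1.39 ± 0.21, adjusted p = 0.00404, limma), and in granuloma 1.01 was not called (adjusted p = 0.0847, limma). It was called with both Spalax types combined (1.66) and against tolerant animals (1.73). The mouse annotation names the pseudogenes Pcna-ps1 and Pcna-ps2, whose reads the counting may have shared with Pcna.

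Lig1, the DNA ligase that seals replicated and repaired strands, differed between the species in its muscle level and in its change. In Spalax it had 983 and 921 in granuloma UIS and 999 and 795 in the granulomas (600, 976), and 762 and 809 in fibrosarcoma UIS and 1400 and 1096 in the tumors (2230, 2240). In mice it had 137, 84.6 and 41.75 in UIS and 937, 977 and 891 in the tumors (1019, 1023, 512). Mouse Lig1 rose by a log2 fold change of 3.56 ± 0.45 (adjusted p = 0.00275, limma), the largest rise among the nucleotide excision repair members there, and the groups stood far apart. In Spalax the log2 fold changes were -0.09 in granuloma and 0.66 in fibrosarcoma (adjusted p = 0.0995 in fibrosarcoma, limma), neither of them called. Mouse Lig1 lies on chromosome 7, bases 13277283 to 13311433 of the forward strand (GENCODE vM21, GRCm38).

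Ercc5, the nuclease that cuts 3′ of the lesion, could be followed in mouse only. It had 574, 699 and 836 in UIS and 275.5, 337 and 431 in the tumors (1019, 1023, 512), with no overlap. The log2 fold change was -1.02 ± 0.28 (adjusted p = 0.0263, limma), and it was 0.04 when libraries were scaled to total reads. Rad23b, the partner of Xpc, was called lower with both Spalax tumor types combined (-0.76), which became 0.01 on total reads. Rfc1, the large subunit of the clamp loader, was called higher there (0.73) and against tolerant animals (0.85). Also against tolerant animals, the damage sensor Xpc was called higher (0.74) and the verification protein Xpa lower (-1.0, and -0.35 with no call on total reads). The other members of this pathway (Ercc2, Ercc3, Ercc6, Ercc8, Ddb1, Ddb2 and Gtf2h1) were not called in any comparison.

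**Figure D2:**
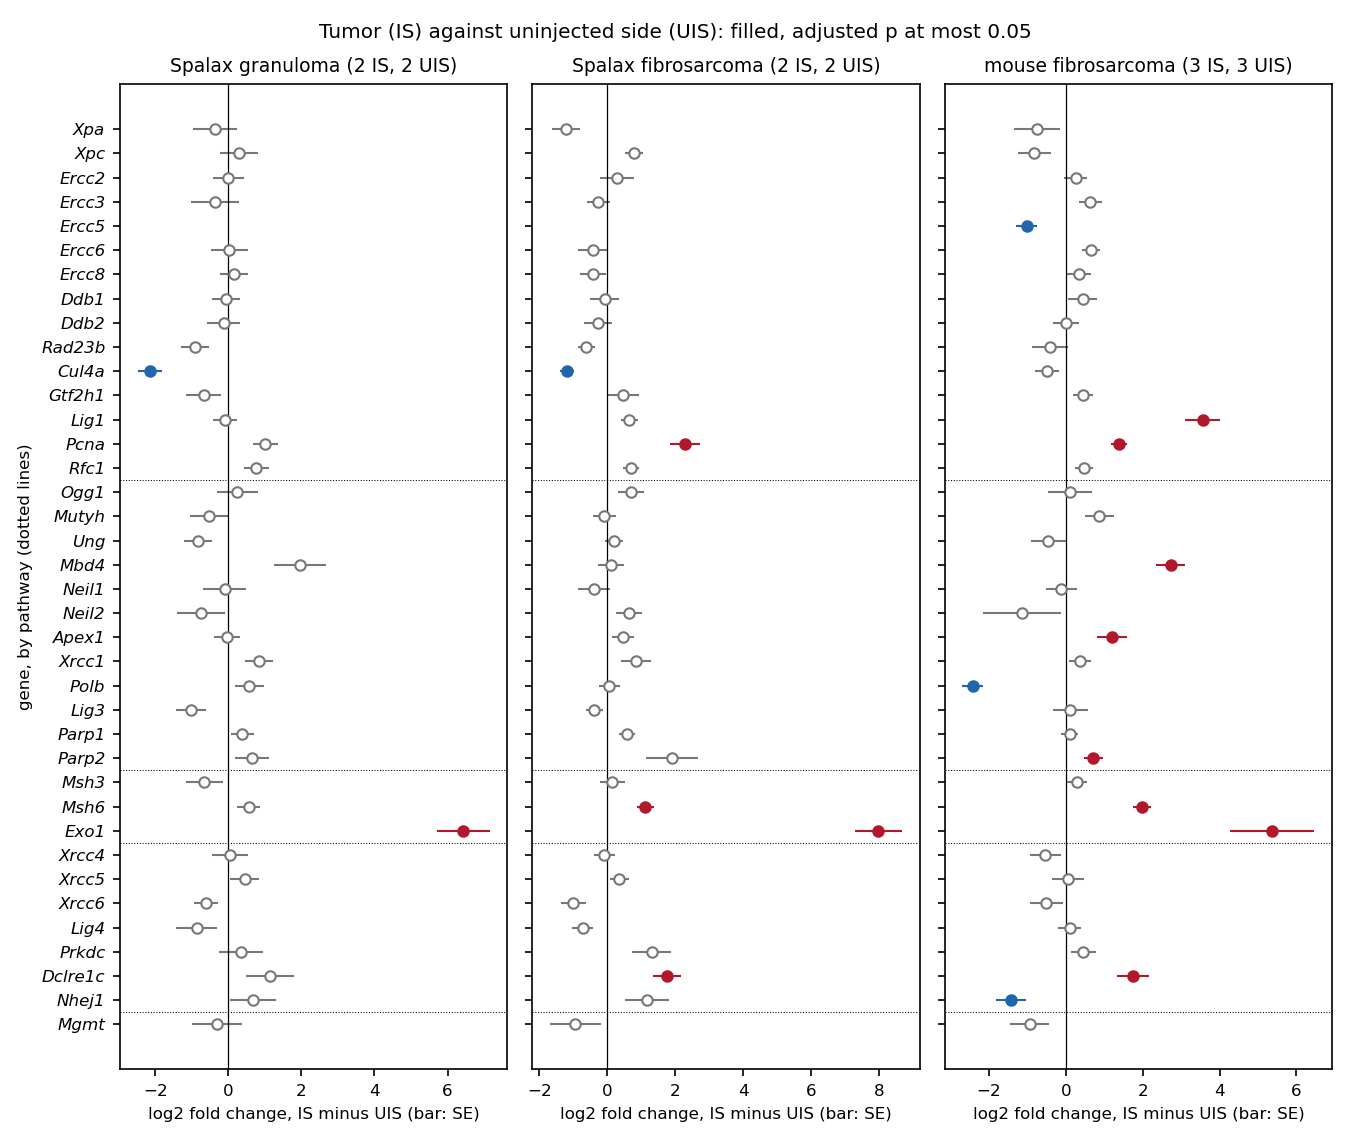
The log2 fold change of IS against UIS for each repair gene (rows, by pathway) in Spalax granuloma, Spalax fibrosarcoma and mouse fibrosarcoma, with bars of 1 standard error; filled red and blue points are called higher and lower, open points are not called. Exo1 lies farthest to the right in all 3 panels (6.42, 7.98 and 5.36), Cul4a is blue in the 2 Spalax panels, and Lig1, Mbd4 and Polb are filled in the mouse panel only.

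Base excision repair genes: no member was called in either Spalax tumor type alone, while 3 were called higher and 1 lower in mouse fibrosarcoma. Polb, which fills the single-base gap, had 2207, 2028 and 1339 in mouse UIS (1019, 1023, 512) and 309, 348 and 355 in the tumors. All 3 mouse tumors lay far below all 6 mouse muscle libraries, which ranged from 1161 to 2207, and the log2 fold change was -2.43 ± 0.26 (adjusted p = 0.00193, limma). In Spalax Polb had 282 and 313 in granuloma UIS and 383 and 514 in the granulomas (600, 976). In fibrosarcoma it had 262 and 301 in UIS and 275 and 314 in the tumors (2230, 2240), which overlapped, and neither difference was called (0.58 and 0.07). Mouse Polb lies on chromosome 8, bases 22628126 to 22653435 of the reverse strand.

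Mbd4, a glycosylase that removes thymine or uracil opposite guanine at CpG sites, had 62.9, 46.4 and 33.1 in mouse UIS and 292.5, 378 and 268 in the tumors (1019, 1023, 512). Every mouse tumor thus exceeded every mouse muscle library, of which the highest had 62.9, and the log2 fold change was 2.73 ± 0.39 (adjusted p = 0.00346, limma). In Spalax Mbd4 had 175 and 51.8 in granuloma UIS against 427.5 and 328 in the granulomas (600, 976), a log2 fold change of 1.96 that was not called (adjusted p = 0.099, limma). In fibrosarcoma it had 156 and 155 in UIS and 204 and 140 in the tumors (2230, 2240), with overlap and a log2 fold change of 0.12. Against tolerant animals, which ranged from 84.8 to 135, the 4 Spalax tumors (140 to 427.5) were called higher (1.24).

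Apex1 (1.20) and the strand-break sensor Parp2 (0.71) were also called higher in mouse tumors, both with an adjusted p near the threshold (0.0418 and 0.0482, limma). In mouse, 61.67% of the exon bases of Apex1 lie under Pip4p1 on the opposite strand. As no source states the strand setting of the counting, the Apex1 count may have gained or lost reads there. With both Spalax tumor types combined, Parp2 (1.27), the scaffold Xrcc1 (0.84) and Parp1 (0.49) were called higher and the ligase Lig3 lower (-0.70, which became 0.08 on total reads). Parp2 in the Spalax tumors was uneven, with 821 in fibrosarcoma 2230 and 196, 220 and 271 in the other tumors, against 92.4 to 156 in UIS. Parp2 (1.44), Mbd4 (given above), Parp1 (0.78) and Xrcc1 (0.72) were called higher against tolerant animals. Ogg1 and Mutyh, which act on oxidized guanine, Ung, which removes uracil, and the glycosylases Neil1 and Neil2 were not called in any comparison.

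Mismatch repair genes: Exo1 and Msh6 were higher in tumors of both species, and Msh3 was not called. Exo1, the exonuclease that removes the mispaired strand, was almost absent from muscle. It had 1.2 and 2.4 in granuloma UIS (600, 976) and 1.4 and 0.0 in fibrosarcoma UIS (2230, 2240). The tumors had 261 and 208 in granuloma and 289 and 530.5 in fibrosarcoma. These UIS values are 3 reads in granuloma and 1 read in fibrosarcoma, and the library with 0 reads allows up to 3.64 normalised counts (3 reads). The ratio of IS to UIS in scaled reads was 130 in granuloma (95% exact interval 44.2 to 630) and 624 in fibrosarcoma (112 to 24700), where the intervals cover counting error only.

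In mouse UIS, Exo1 had 52.0, 4.1 and 1.4 (1019, 1023, 512), and the tumors had 326, 387 and 363. The ratio was 18.5 (95% exact interval 13.9 to 25.2), with most UIS reads from animal 1019. That library also had the highest summed proliferation markers of the mouse muscle libraries, 2778 beside 504 to 671 in the other 5. The fitted log2 fold changes, which depend on the pseudocount at such low levels, were 6.42 in granuloma (adjusted p = 0.00836, limma), 7.98 in Spalax fibrosarcoma (adjusted p = 0.00449, limma) and 5.36 in mouse (adjusted p = 0.0102, limma). They were 7.20 with both Spalax types combined and 6.04 against tolerant animals. Without UIS 1019 the mouse value was 6.66, and without UIS 2230 or UIS 2240 that of Spalax fibrosarcoma was 8.62 or 7.34, no longer called. In the 4 Spalax controls Exo1 lay between 1.8 and 4.4, in the 4 tolerant animals between 1.3 and 11.3, and in the 3 mouse controls between 1.0 and 5.7, so that it did not pass the filter in comparisons of muscle with muscle. The 7 tumors thus lay between 208 and 530.5, each on the scale of its species, and the 18 muscle libraries between 0.0 and 52.0.

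Msh6, which binds single-base mismatches, had 1289 and 1528 in granuloma UIS and 2167 and 1972 in the granulomas (600, 976), which was not called (0.56). In fibrosarcoma it had 944 and 1061 in UIS and 1947 and 2445 in the tumors (2230, 2240), a log2 fold change of 1.12 ± 0.24 (adjusted p = 0.0271, limma). In mice it had 202, 246.5 and 222 in UIS and 916, 963 and 775 in the tumors, a log2 fold change of 1.98 ± 0.24 (adjusted p = 0.00236, limma). In all 3 comparisons the tumors exceeded the UIS without overlap. Msh6 was called higher with both Spalax types combined (0.84) and against tolerant animals (1.30) as well. Msh3, which serves larger insertion and deletion loops, had log2 fold changes of -0.65, 0.15 and 0.28 in granuloma, Spalax fibrosarcoma and mouse.

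**Figure D3:**
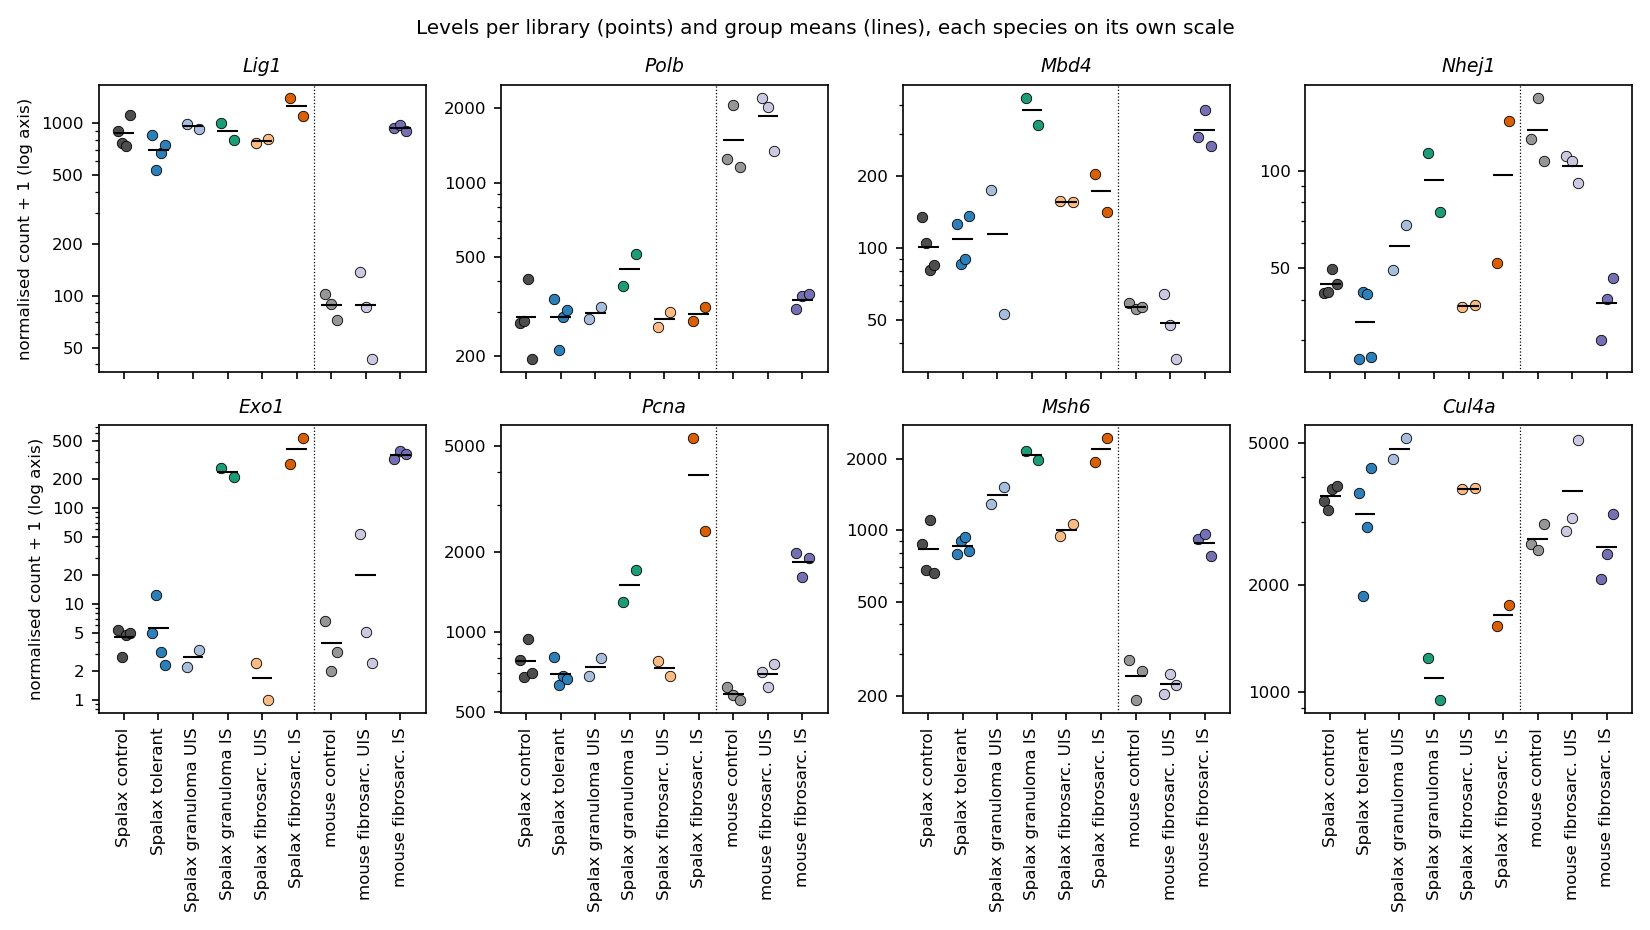
Normalised counts plus 1 (log axes) of 8 repair genes in every library, with group means as lines; the dotted line separates Spalax from mouse, which are on scales of their own. Lig1, Mbd4 and Msh6 are high in the 3 mouse tumors against the 6 mouse muscle libraries, Polb and Nhej1 are low there, and Exo1 is above 200 in the 7 tumors and at most 52.0 in muscle.

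End joining genes: Dclre1c was higher in fibrosarcoma of both species, and Nhej1 was called lower in mouse tumors and higher in Spalax tumors against tolerant muscle. Dclre1c encodes Artemis, the nuclease that trims DNA ends. It had 82.5 and 87.3 in fibrosarcoma UIS and 365 and 228 in the tumors (2230, 2240), a log2 fold change of 1.75 ± 0.41 (adjusted p = 0.0329, limma). In mice it had 126, 136 and 176 in UIS and 803, 493 and 295 in the tumors (1019, 1023, 512), a log2 fold change of 1.75 ± 0.42 (adjusted p = 0.017, limma). Tumors and UIS did not overlap in either species, and in granuloma, with 53.1 and 117 in UIS and 140 and 220 in the tumors, the log2 fold change of 1.15 was not called. It was called with both Spalax tumor types combined (1.45) and against tolerant animals (1.48).

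Nhej1 encodes XLF, which bridges DNA ends for ligation. It had 110, 106 and 90.7 in mouse UIS and 28.9, 39.1 and 45.8 in the tumors (1019, 1023, 512), without overlap, and the log2 fold change was -1.43 ± 0.38 (adjusted p = 0.0243, limma). In Spalax it had 48.2 and 67.1 in granuloma UIS and 112.5 and 73.7 in the granulomas (600, 976), and 37.0 and 37.6 in fibrosarcoma UIS and 51.0 and 141 in the tumors (2230, 2240). Neither difference was called (0.67 and 1.17). The tolerant animals had 25.1, 41.3, 40.5 and 25.5 (2218, 2251, 2261, 2375), all below the 4 tumors, and against them Nhej1 was called higher (1.42 ± 0.43, adjusted p = 0.0246, limma). Both calls rest on few reads, 56 to 103 per UIS or IS library in mouse and 19 to 55 per tolerant library. The mouse value was -0.38 (adjusted p = 0.466, limma) when libraries were scaled to total reads.

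Xrcc6, the Ku70 protein that loads on broken ends, was called lower with both Spalax tumor types combined (-0.80), and this was -0.03 on total reads. Its partner Xrcc5 was not called, nor were the ligase Lig4, its cofactor Xrcc4 or the kinase Prkdc, which had log2 fold changes of 0.35, 1.30 and 0.46 in granuloma, Spalax fibrosarcoma and mouse. Mgmt, which takes alkyl groups off guanine and is the direct reversal member, was not called in any comparison of tumor with muscle, with log2 fold changes of -0.31, -0.93 and -0.94. Its levels were low and lay between 12.3 and 156 over the Spalax libraries and between 31.1 and 129 over those of mouse.

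Several of these calls rest on few libraries. In granuloma, Cul4a was not called without IS 600, IS 976 or UIS 976 (adjusted p = 0.107, 0.142 and 0.0543, limma) and Exo1 not without IS 600 or IS 976 (0.0702 and 0.0752). In the Spalax tumor types leaving out 1 library leaves a side with a single sample, which is assumed to vary like the remaining pair. In Spalax fibrosarcoma all 5 calls were lost without UIS 2230 or UIS 2240, where limma called 0 genes in all. Without IS 2230 or IS 2240, 14 and 12 members were called, beside 56.4% and 57.1% of all genes. In mouse, 15 members were called without UIS 512, 7 without IS 1019 and 6 without UIS 1023 or IS 1023. Lig1, Pcna, Mbd4, Polb, Msh6 and Exo1 stayed called whichever library was left out, and Ercc5, Apex1, Parp2, Dclre1c and Nhej1 did not. With both Spalax types combined, Rad23b, Cul4a, Pcna, Msh6, Exo1, Xrcc6 and Dclre1c stayed called whichever library was left out. Against tolerant animals Cul4a, Pcna, Rfc1, Parp1, Msh6 and Exo1 did so, and 6 members were called without tolerant 2218 and 8 without tolerant 2261 or IS 600. For these mouse and tolerant fits the share of all genes called is not given, so the counts alone show no change particular to repair genes. With the animal as a block, Dclre1c was not called in Spalax fibrosarcoma (adjusted p = 0.0523, limma), nor were Apex1, Parp2 and Nhej1 in mouse (0.0516, 0.0988 and 0.0541) or Lig3, Parp1 and Parp2 with both Spalax types combined (0.0802, 0.0889 and 0.0801).

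Whether the tumor difference itself differed between the species was tested as an interaction over the genes shared by symbol, with IS minus UIS in Spalax fibrosarcoma minus the same in mouse. Of 37 members 3 were called, beside 3.95% of all genes tested. Polb fell in mouse and not in Spalax, a difference of 2.50 ± 0.39 (adjusted p = 0.0192, limma). Lig1 and Mbd4 rose in mouse by more than in Spalax fibrosarcoma. The differences were -2.90 ± 0.61 for Lig1 (adjusted p = 0.0394, limma) and -2.61 ± 0.57 for Mbd4 (adjusted p = 0.0432, limma). In the granulomas, which this test left out, Mbd4 rose by 1.28 and 2.64 (600, 976), beside 2.2, 3.0 and 2.98 in the mice. Nhej1 had log2 fold changes of 1.17 in Spalax and -1.43 in mouse, and the difference of 2.60 ± 0.74 was not called (adjusted p = 0.0865, limma). The 3 differences were not called with the animal as a block (adjusted p = 0.0853 for Lig1, 0.105 for Mbd4 and 0.0746 for Polb, limma). Without Spalax UIS 2230, Spalax UIS 2240 or mouse UIS 1023 none of the 3 was called, without any 1 mouse IS library 1 was called, and without mouse UIS 1019 or UIS 512 all 3 were.

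The levels of Lig1 and Polb lay closer between species in fibrosarcoma than in control muscle, and those of Mbd4 did not. Lig1 had 732 to 1112 in Spalax control and 70.9 to 101 in mouse control, while the fibrosarcomas had 1096 to 1400 in Spalax and 891 to 977 in mouse. Polb had 193 to 407 in Spalax control and 1161 to 2060 in mouse control, while the fibrosarcomas had 275 to 314 and 309 to 355. Mbd4 had 79.8 to 134 in Spalax control and 54.2 to 57.9 in mouse control, and 140 to 204 and 268 to 378 in the fibrosarcomas. As the tables were normalised separately and on different gene models, these levels are set side by side and were not tested. The summed proliferation markers were 22300 and 24660 in the Spalax fibrosarcomas and 20380 to 24710 in those of mouse. Between fibrosarcoma and granuloma within Spalax no member's interaction was called, where 1 of 37 members (2.7%) had an unadjusted p under 0.05, beside 4.92% of all genes. By edgeR and by DESeq2 the number of members called was 0 as well. Over all genes limma called none, edgeR 0 and DESeq2 88. The 1 member was Cul4a, whose fall was smaller in fibrosarcoma by 0.96 (adjusted p = 0.946, limma).

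**Figure D4:**
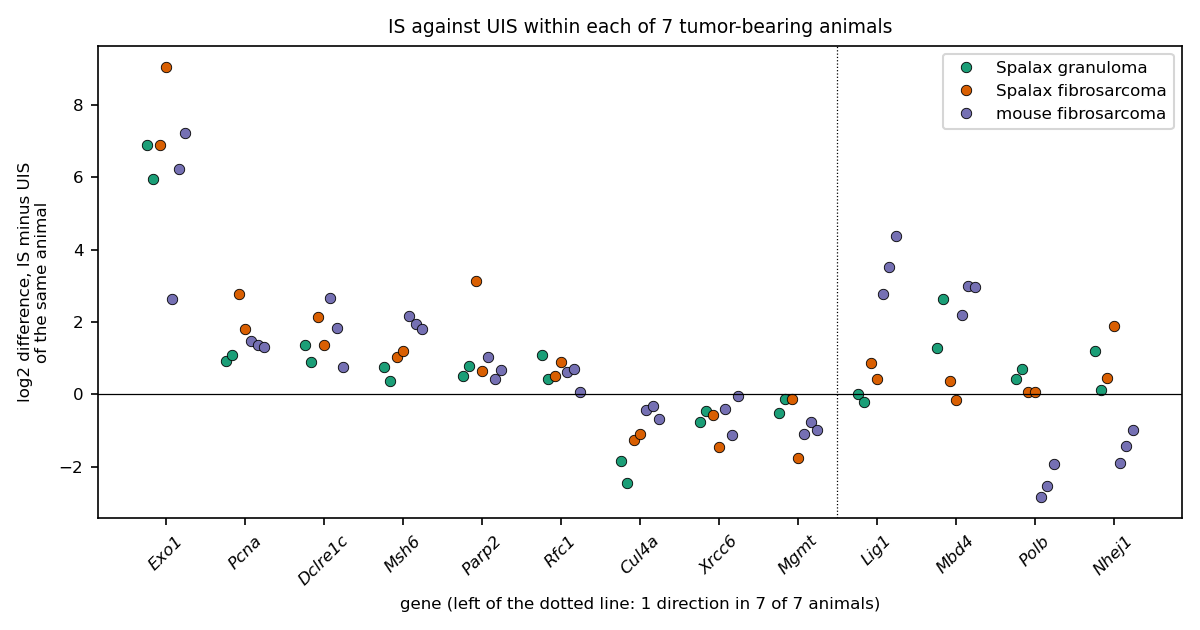
The log2 difference between IS and UIS of the same animal for 13 repair genes, with 1 point for each of 2 granuloma and 2 fibrosarcoma Spalax and 3 mice. The first 9 genes lie on 1 side of 0 in all 7 animals, and Lig1, Mbd4, Polb and Nhej1 show the 3 mice apart from the Spalax fibrosarcomas.

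Within animals, 6 of the 37 members in both tables were higher in IS than in the UIS of the same animal in all 7 animals, beside 22.4% of the shared genes that passed the filter. They were Pcna, Rfc1, Parp2, Msh6, Exo1 and Dclre1c. The differences of Exo1 ran from 2.63 to 9.05, those of Pcna from 0.93 to 2.78 and those of Msh6 from 0.37 to 2.18 on the log2 scale. Cul4a, Xrcc6 and Mgmt were lower in all 7 animals, beside 22.3% of these genes. Cul4a ran from -2.44 to -0.33, Mgmt from -1.75 to -0.12 and Xrcc6 from -1.44 to -0.03, so that the smallest of these differences was near 0.

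In muscle itself limma called no gene at all, and thus no repair gene. The study set the uninjected side of Spalax against untreated animals to ask whether some animals are predisposed and whether a tumor affects tissue around it. For the 4 UIS against the 4 controls of Spalax, limma called 0 of 36 members and 0 genes in all, with 4 members at an unadjusted p under 0.05 (11.1%, beside 16.6% of all genes). Lig3 (0.80) and Msh6 (0.55) were higher and Xrcc4 (-0.69) and Mgmt (-1.17) lower among these. Mgmt had 37.4, 34.15, 48.3 and 43.6 in UIS (600, 976, 2230, 2240) and 60.7, 83.6, 156 and 92.5 in control (1042, 1075, 2095, 6038). It was called by DESeq2 (-1.24, adjusted p = 0.0344), and the members called were 0 by edgeR. On the recovered reads edgeR called 0 genes in all and DESeq2 495. The groups did not overlap for Ogg1, Xrcc4 and Mgmt, all lower in UIS, which is 8.33% of the members beside 12.7% of all genes.

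Among the tolerant animals library 2251 stood apart in its markers, with summed levels of 189000 for fibroblasts, 16050 for macrophages and 1895 for lymphocytes, beside at most 44350, 3981 and 377 in the other 3, and the lowest muscle sum (1005000). Its part in the results was not tested beyond leaving it out, which gave 12 members called for tumors against tolerant (53% of all genes) and 0 for tolerant against control. For the tolerant animals against control, limma called 0 of 36 members, and the count was 0 by edgeR and by DESeq2. Over all genes limma called none, edgeR 0 and DESeq2 56. At an unadjusted p under 0.05 there were 2 members (5.56%, beside 5.23% of all genes), Xrcc1 (0.46) and Mgmt (-0.86). Xrcc1 had 647, 680, 566 and 594 in the tolerant animals (2218, 2251, 2261, 2375) and 452, 502.5, 485 and 373 in control (1042, 1075, 2095, 6038). It and Neil1 were higher without overlap, 5.56% of members beside 3.86% of all genes. For mouse UIS against control, limma, edgeR and DESeq2 each called 0 of 37 members. Over all genes limma called none there, edgeR 0 and DESeq2 382. Rad23b had an unadjusted p under 0.05 (1.17), which is 2.7% of members beside 11% of all genes, and Rad23b, Ddb1 and Pcna were higher without overlap (8.11% beside 21.2%). Rad23b had 4529, 4641 and 13380 in UIS (1019, 1023, 512) and 2545, 2863 and 3421 in control (M1, M2, M5), the UIS library 512 standing far above the rest.

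Over the 12 Spalax muscle libraries the highest normalised count of a member was a median 2.35 times its lowest (36 members with a mean of at least 10, each value plus 1), beside 3.45 over all genes with such a mean. Over the 6 mouse muscle libraries these medians were 1.94 and 2.61. The members and all genes were not matched for level, so the medians show no steadiness particular to repair genes. The narrowest in Spalax were Xrcc5 (1.41 times), Pcna (1.49) and Ddb2 (1.56), and the widest Neil2 (6.44), Xpa (6.2) and Ercc6 (5.61). In mouse Lig4 was narrowest (1.12) and, past the low Exo1, Neil2 widest (9.79). Per kilobase of merged exon, the mouse control levels ran from 757 normalised counts for Ddb1, 513 for Rad23b and 419 for Cul4a down to 10.6 for Mbd4, 6.69 for Neil2 and 0.350 for Exo1. Levels per kilobase were not computed for Spalax, as no transcript lengths of its gene models were used here.

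Finally, the untreated muscle of both species was compared, to ask whether repair genes differ without carcinogen. Levels are CPM, the reads of a gene per fixed number of library reads, scaled by TMM over the genes shared by symbol, with 4 Spalax and 3 mouse libraries, and are described and not tested. Of 36 members over 1 CPM in either species, 7 were higher in Spalax without overlap and by at least 2-fold, and 6 were lower. Over all 11704 such genes these shares were 19.2% higher and 22.8% lower. The median log2 ratio of Spalax to mouse was 0.10 for the members and -0.02 for all genes.

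**Figure D5:**
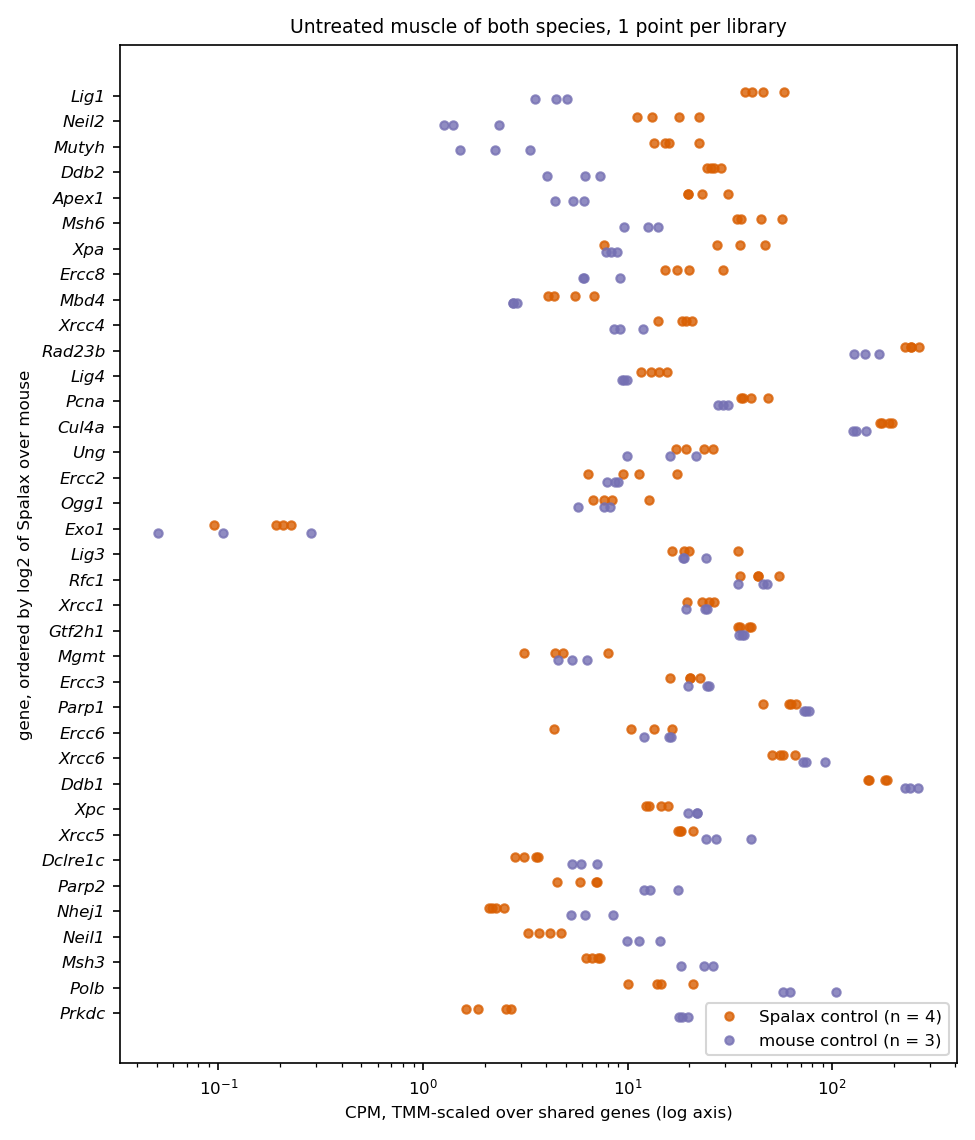
CPM (log axis) of 37 repair genes in each of 4 Spalax and 3 mouse control libraries, ordered by the log2 ratio of Spalax to mouse. Lig1 at the top (45.4 against 4.34 CPM) and Prkdc at the bottom (2.18 against 18.7 CPM) are the farthest apart, and most genes in the middle overlap or differ by less than 2-fold.

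The nucleotide excision repair genes higher in Spalax were Lig1, Ddb2 and Ercc8, and none was lower. Lig1 had 45.4 ± 9.05 CPM (SD, n = 4) in Spalax and 4.34 ± 0.774 (SD, n = 3) in mouse. The damage receptor Ddb2 had 26.2 ± 1.75 and 5.86 ± 1.67, and Ercc8, a part of the transcription-coupled branch, 20.4 ± 6.12 and 7.12 ± 1.79. In base excision repair Neil2 (16.1 ± 4.98 and 1.68 ± 0.594), Mutyh (16.8 ± 3.91 and 2.37 ± 0.927) and Apex1 (23.4 ± 5.32 and 5.31 ± 0.839) were higher in Spalax. Polb (14.8 ± 4.47 and 74.6 ± 25.7), Neil1 (3.97 ± 0.629 and 11.9 ± 2.32) and Parp2 (6.12 ± 1.20 and 14.2 ± 3.01) were lower. The mouse level of Apex1 carries the strand limit given above. For Ddb2, 23.83% of the mouse exon bases lie under Acp2 on the opposite strand, so the same limit applies.

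In mismatch repair the 2 lesion-binding members went opposite ways, with Msh6 at 43.0 ± 10.3 CPM in Spalax and 12.1 ± 2.27 in mouse, and Msh3 at 6.85 ± 0.509 and 22.6 ± 4.08. In end joining no member was higher in Spalax, and Prkdc (2.18 ± 0.525 and 18.7 ± 1.02) and Nhej1 (2.26 ± 0.172 and 6.66 ± 1.65) were lower. The median log2 ratio of the 7 end joining members was -0.70. Mgmt, at 5.08 ± 2.07 and 5.42 ± 0.896, overlapped. Such differences in level between species cannot be told apart from differences in the gene models and transcript lengths on which reads were counted, nor from the sex and age of the animals or the fat markers in the mouse controls.

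The lists of these pathways held 56 other genes. In granuloma 3 of 51 tested were called higher and 2 lower, beside 11.7% and 12.6% of all genes. In Spalax fibrosarcoma 11 of 51 and 2 were called, beside 17.4% and 19%. In mouse fibrosarcoma the counts were 16 of 54 and 7, beside 22.8% and 22.3%. In nucleotide excision repair the largest called rise was that of Pole, the leading-strand polymerase, in both Spalax tumor types (4.18 and 5.02), and that of Pole2, its second subunit, in mouse (3.69). In base excision repair Neil3, a glycosylase of dividing cells, had the largest called rise in all 3 (6.47, 7.65 and 5.22), with mean UIS levels of 0.589, 1.21 and 17.4 normalised counts. In both Spalax tumor types Neil3 passed the filter only through the tumors. The largest called falls in base excision repair were those of Parg in both Spalax tumor types (-1.48 and -1.08). Parg degrades poly(ADP-ribose). In mouse the largest was that of the polymerase Poll (-1.18). In end joining Rif1, a break-protection protein, rose in Spalax fibrosarcoma (1.42) and the polymerase Polm in mouse (2.48). In direct reversal Alkbh2 rose (1.88) and Alkbh3 fell (-1.33) in mouse. Of the 5 other mismatch repair genes, 0, 2 and 1 were called higher in the 3 comparisons, beside 11.7%, 17.4% and 22.8% of all genes, and none lower.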

How the data were processed

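The members and gene lists were chosen with earlier results of these data known. Per the study's methods, strand-specific libraries were read from a single end, Trimmomatic removed adapters, TopHat2 placed the reads and htseq-count counted them. The submitters' processing notes name TopHat 1.4.1, HTSeq and DESeq. The strand setting of the counting and the role of the named genome build are not given in the sources used here. The values deposited by the authors form a signal: the reads of each gene over the size factor of its library. All values were whole multiples of 1 read within a tolerance of 0.01, so dividing by that step gave back the reads. A normalised count of 10 rests on 6.95 to 19.4 reads. Reads carry no molecular identifiers, so intervals cover counting error only. In 2387 names of the Spalax table a comma was read as the letter t, and the 16 values were taken from the line end.

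Groups were compared mainly with limma (version 3.58.1, R 4.3.3; lmFit, eBayes with trend) on log2(value + 1), which understates changes of low genes. The filter kept genes that reached 10 in enough libraries to fill the smaller group (between species, in 2 libraries of each). Benjamini-Hochberg adjustment covered all genes tested. Each fit held the compared groups alone. Alternatives were edgeR 4.0.16 (quasi-likelihood, TMM) and DESeq2 1.42.0 on recovered reads, total-read scaling, a pseudocount of 0.1, no filter, 1 model over all libraries of a species, an animal block and leaving out each library. The scripts were tested on simulated data. Replicates of a group were compared pairwise and none were copies. Per the labels, libraries of a group came from separate animals.

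Pairing comes from the animal number in the labels. Around their group means, libraries of 1 animal correlated at 0.009 in granuloma, -0.002 in Spalax fibrosarcoma and 0.117 in mouse, and those of different animals at -0.009, 0.002 and -0.056. The library named for granuloma UIS 976 carries another animal number in 1 label and was kept as 976.

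Each called member is named. Values of every library are given for the called member with the largest rise and fall per pathway in the 3 comparisons of IS with UIS of 1 tumor type, and for members with a called interaction, opposite calls or levels near 0. Other values shown were chosen after they were seen. Some single genes outside the member list are not reported here. Gene positions and overlaps come from GENCODE vM21 (GRCm38), not from the files. Figures were drawn with matplotlib 3.10.9.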

Additional observations from a re-analysis of the deposited data

Results flagged for a closer look

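In 3 of the 74 groups of 4 Spalax libraries looked at (37 genes in control and in tolerant), 1 library stood far from the other 3 by Dixon's criterion, which chance alone gives in about 1 of 20 groups. Rfc1 had 1196 normalised counts in tolerant animal 2375 and 805 to 872 in the other tolerant animals. Lig3 had 667 in control 6038 and 322 to 378 in the other controls. Xrcc5 had 409 in control 2095 and 345.2 to 345.6 in the others.

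The tumor difference of 3 genes differed between Spalax and mouse fibrosarcoma by the interaction test: Lig1 by -2.90, Mbd4 by -2.61 and Polb by 2.50 on the log2 scale, Spalax minus mouse. None was called in the blocked fit.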

How the results depend on the processing

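Of the 46 differences called for single members, 46 kept direction and call with DESeq2 and 46 with a pseudocount of 0.1, 41 kept the call with edgeR and 40 without a filter. Over all fits leaving out 1 library, 215 of 324 kept the call, 109 lost it and 0 changed direction. Scaled by total reads, 38 kept the call, 5 lost it and 3 changed direction: Rad23b (0.01) and Lig3 (0.08) with both Spalax tumor types together and Ercc5 (0.04) in mouse. By the construction of that scale the median gene is shifted. The number of members called then was 8 in granuloma, 16 in Spalax fibrosarcoma, 21 with both types together and 23 in mouse, beside 30.5%, 46.5%, 60.4% and 60.6% of all genes. With 1 model over all Spalax libraries it was 6 in granuloma, given here without the share of all genes. The cause was not tested. DESeq2 called 1 member for Spalax UIS against control. For the interaction between species edgeR called 1 member and the fit with the animal as a block 0. Both counts stand without the share of all genes.

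Leaving out 1 library, the members called ranged from 0 to 3 in granuloma, 0 to 14 in Spalax fibrosarcoma, 8 to 13 with both types together, 6 to 15 in mouse, 6 to 12 against tolerant, 0 to 3 for the interaction between species, 7 to 8 for those higher in Spalax control than in mouse control, and 0 to 0 in the other comparisons. These ranges stand without the share of all genes called in each fit, so they show no change particular to the members. The paired fits with the animal as a block called 2 members in granuloma, 4 in Spalax fibrosarcoma and 9 with both types together. They called 8 in mouse and 0 for the interaction within Spalax, and changed no call beyond those given. Their counts also stand without the share of all genes called, so they show no change particular to the members. With 2 or 3 libraries a group and Exo1 at 0 to 2 reads per Spalax UIS library, folds of low genes are imprecise.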
